A study of Arabidopsis thaliana with 11 samples.

Results

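Samples labelled as guard cells, from Arabidopsis thaliana plants that had been through 3 rounds of increasing salt were compared with samples from plants given water without salt. The 8 samples of this comparison are 4 of the 3x salt group and 4 of the no salt group, out of 11 in the series, and all 28718 loci of the deposited expression table were used. All plants were of the accession Columbia-0, started the experiment at an age of 4 to 5 weeks and grew in soil with 12 h of light a day (22 °C in the light and 16 °C in the dark). In each round the pots stood in solution for 2 h a day. For the 3x salt plants the NaCl concentration was 75 mM in the first round (days 1 and 2), rose to 150 mM in the next (days 7 and 8) and ended at 200 mM (days 13 and 14), while the no salt plants stood in tap water alone. The 1x salt group (3 samples), used here only to show where stepwise salt differs from 1 late exposure, had the 200 mM round alone. Every plant was sampled on day 15, once the lights had been on for 4 h. One 1-colour array was hybridised per sample. The labels do not state whether replicate samples stem from different plants, so the p-values speak for the scatter among these samples alone, and that scatter may be technical.

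Guard cells are the epidermal cells that border the stomatal pore, and they open it by taking up potassium with chloride, nitrate and malate and close it by releasing them. They hold chloroplasts and starch, and the starch is turned over with the light cycle. Plants under lasting salt have to keep sodium and chloride out of the cytosol, hold water and, over days, adjust growth, wall structure and metabolism. The account below goes through these functions one by one, apart from the abscisic acid, defence and photosynthesis genes.

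Marker genes of guard cells and of other leaf cells were checked against the label of the samples. All 13 guard cell markers were above background in the scanner files, as were the 12 mesophyll and the 17 vascular markers and 7 of 9 pavement cell and trichome markers. Guard cells hold chloroplasts themselves, and the share of other cells in the samples was not measured. Of the guard cell markers, 7 fell and none rose in 3x salt (median log2 difference -0.47), and their summed level was 15.6 to 15.9 on the log2 scale in no salt and 14.8 to 15.3 in 3x salt. Relative to each gene's no salt mean, their median was -0.30, -0.36, -0.32 and -0.33 in 3x salt 1 to 4. It was -0.36 in no salt 1, as low as in the salt samples, and 0.09 to 0.14 in the other controls. Among the mesophyll markers, 11 of 12 fell (median -0.79), with summed levels of 19.4 to 19.6 against 18.7 to 19.1. RBCS2B, a small subunit gene of Rubisco, fell by 1.8 on the log2 scale (SE 0.20, adjusted p = 0.000104), and TGG2, a myrosinase gene of guard cells, fell by 0.97 (SE 0.22, adjusted p = 0.00645). The vascular markers gave 2 rises and 3 falls of 17 (median -0.02), and their summed level was 17.25 to 17.58 in no salt and 17.63 to 17.80 in 3x salt. Their median was 0.34, 0.33, -0.11 and -0.19 in 3x salt 1 to 4, each relative to the no salt mean, so that samples 1 and 2 stood above and samples 3 and 4 below. AHA3, a proton pump gene of the phloem, rose by 0.96 (SE 0.13, adjusted p = 0.000267), the most of the vascular list, whose lowest member was at -1.26. The epidermal gene FDH rose by 0.79 (SE 0.08, adjusted p = 7.34e-05), the most of its list of 9 pavement cell and trichome markers. In that list 1 rose and 3 fell (median -0.29, lowest -0.92), with summed levels of 14.2 to 14.4 in no salt and 14.6 to 14.8 in 3x salt. Of 14 genes that react quickly to touch and wounding, 13 fell and none rose (median -1.76), among them WRKY40, which fell by 2.84 (SE 0.30, adjusted p = 7.25e-05), and CBF1, which fell by 1.90 (SE 0.14, adjusted p = 1.1e-05). The calls of RBCS2B, TGG2 and AHA3 were lost when close arrays were averaged, as described next (adjusted p from 0.0502 to 0.118). The averaged setting left no guard cell marker, 1 mesophyll marker and 2 touch and wound genes lower. In these samples, fewer cells of a type and less RNA per cell cannot be told apart.

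Arrays of the same group were not equally far from each other. The standard deviation of the log2 differences was 0.242 to 0.291 among no salt 2, 3 and 4 and 0.368 to 0.387 between no salt 1 and these. It was 0.272 between 3x salt 1 and 2, 0.255 between 3x salt 3 and 4, and 0.4 to 0.441 across the pairs. The 1x salt arrays lay further apart, at 0.529 and 0.625 between 1x salt 1 and the others. Between 1x salt 2 and 3, which are averaged below, it was 0.443, above the values across the 3x salt pairs. Only slides 1 and 6 held arrays of both groups, with no salt 1 and 3x salt 1 on slide 1 and no salt 4 and 3x salt 4 on slide 6. All 148 genes named in the text that passed the test had the same sign within slide 1 and within slide 6. These genes were chosen from the same arrays for a small adjusted p or for no overlap. That choice largely fixes the signs, so a slide effect was not tested by it. When close arrays were averaged to 1 sample each (no salt 2, 3 and 4, 1x salt 2 and 3, 3x salt 1 and 2, 3x salt 3 and 4), 72 of these 148 calls were kept, and those that were not are named beside the results. Averaging lowered the number of calls in most lists, while no median of the 49 lists moved by more than 0.20.

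After the 3 rounds of salt a large share of the transcriptome differed from tap water. In limma's test over all loci, with a Benjamini-Hochberg threshold of 0.05, 5243 of 28718 loci were higher in 3x salt (18.3%) and 4100 were lower (14.3%). In 10225 loci (35.6%) the 4 values of one group lay wholly above the 4 of the other, 5750 of them higher (20.0%) and 4475 lower (15.6%) in 3x salt. Large differences leaned to lower values, with 951 loci at least 1 log2 unit higher (3.31%) and 1330 at least 1 unit lower (4.63%). At 3 units or more the numbers were close, 52 higher (0.181%) and 51 lower (0.178%). The median difference over all loci was 0.02 and the median standard error 0.135. A call in a list of genes is read below against the shares of 18.3% and 14.3%. With close arrays averaged, 543 of the 28718 loci were higher and 461 lower in 3x salt, and with slide as a block 3400 and 2554. List counts under averaging or with slide as a block are to be read against these smaller numbers. The deposited table compresses low values, so that differences of dim genes are smaller in it than in the scanner signals. A gene whose probe failed the background test on every array of 1 group is given as "at least" a fold, computed from the scanner signals against the lowest signal that counted as above background.

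The 15 largest rises among loci that also passed in the scanner values and did not overlap between the groups included protective proteins, sugar and lipid genes, and transport genes. LEA7 (AT1G52690), a late embryogenesis abundant protein of the kind that guards cells during drying, had values of 7.24, 7.80, 7.21 and 7.70 in no salt 1 to 4 and of 15.13, 15.24, 15.88 and 15.85 in 3x salt 1 to 4. All 4 salt samples lay over 7 log2 units above all controls, and the difference of 8.03 (SE 0.96, adjusted p = 0.000139) was the largest among all loci. M17 (AT2G41260), also annotated as a late embryogenesis abundant protein, rose by 4.32 (SE 0.22, adjusted p = 1.25e-06), and 1 of 4 control arrays detected it above background. The drought-induced gene DI21 (AT4G15910) was at 12.69, 12.65, 12.58 and 12.72 in no salt and at 17.82, 17.75, 17.65 and 17.70 in 3x salt, a rise of 5.07 (SE 0.18, adjusted p = 1.25e-07). Within each group these 8 values were nearly level. TSPO (AT2G47770), a stress-induced membrane protein, rose by 4.98 (SE 0.52, adjusted p = 6.35e-05).

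Genes of sugar and lipid handling stood next to them. CWINV5 (AT3G13784), of the cell wall invertases that split sucrose outside the cell, was at the background in all controls (4.89, 4.86, 4.69 and 5.41). It reached 12.08, 12.15, 11.02 and 11.16 in 3x salt, at least 119-fold higher (adjusted p = 1.06e-05). The sucrose exporter SWEET15 (AT5G13170) was at 5.45, 5.55, 5.64 and 5.58 in no salt and at 10.10, 10.14, 9.91 and 9.98 in 3x salt. Its rise of 4.47 had the smallest adjusted p of the genes named here (SE 0.09, adjusted p = 1.61e-09). LTP4 (AT5G59310), a lipid transfer protein, rose by 4.79 (SE 0.49, adjusted p = 5.78e-05). CER1 (AT1G02205), needed for the alkanes of the leaf wax, was at 5.63, 5.97, 5.98 and 5.62 in no salt and at 9.18, 9.50, 10.02 and 10.13 in 3x salt, a rise of 3.91 (SE 0.48, adjusted p = 0.000158).

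The remaining large rises were of varied function. NRT1.8 (AT4G21680), which takes nitrate out of the xylem sap, rose by 4.19 (SE 0.46, adjusted p = 8.43e-05). The small cysteine-rich peptide gene GASA3 (AT4G09600) and the defensin gene LCR67 (AT1G75830) had no control array well above background and were at least 29.6-fold (adjusted p = 1.9e-05) and 19.9-fold higher (adjusted p = 1.25e-06) in 3x salt. The leucine zipper factor gene bZIP5 (AT3G49760) was at 4.82, 4.78, 4.66 and 4.87 in no salt, where no array was well above background. In 3x salt it was at 8.64, 8.68, 8.71 and 8.67, at least 13.1-fold higher (adjusted p = 1.18e-08). The serine carboxypeptidase-like gene scpl33 (AT3G17180) rose by 3.78 (SE 0.17, adjusted p = 5.6e-07) and SRG1 (AT1G17020), a dioxygenase gene linked to senescence, by 3.67 (SE 0.34, adjusted p = 3.65e-05). XTH33 (AT1G10550), a xyloglucan transglucosylase of the cell wall, rose by 3.89 (SE 0.68, adjusted p = 0.00132) but split the salt samples, with 11.55 and 11.63 in 3x salt 1 and 2 against 8.37 and 8.61 in 3x salt 3 and 4. All 4 still lay above the no salt values of 5.94 to 6.34. With close arrays averaged, 12 of the 15 calls were kept, all but LEA7, CER1 and XTH33 (adjusted p from 0.0561 to 0.0749).

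**Figure D1:**
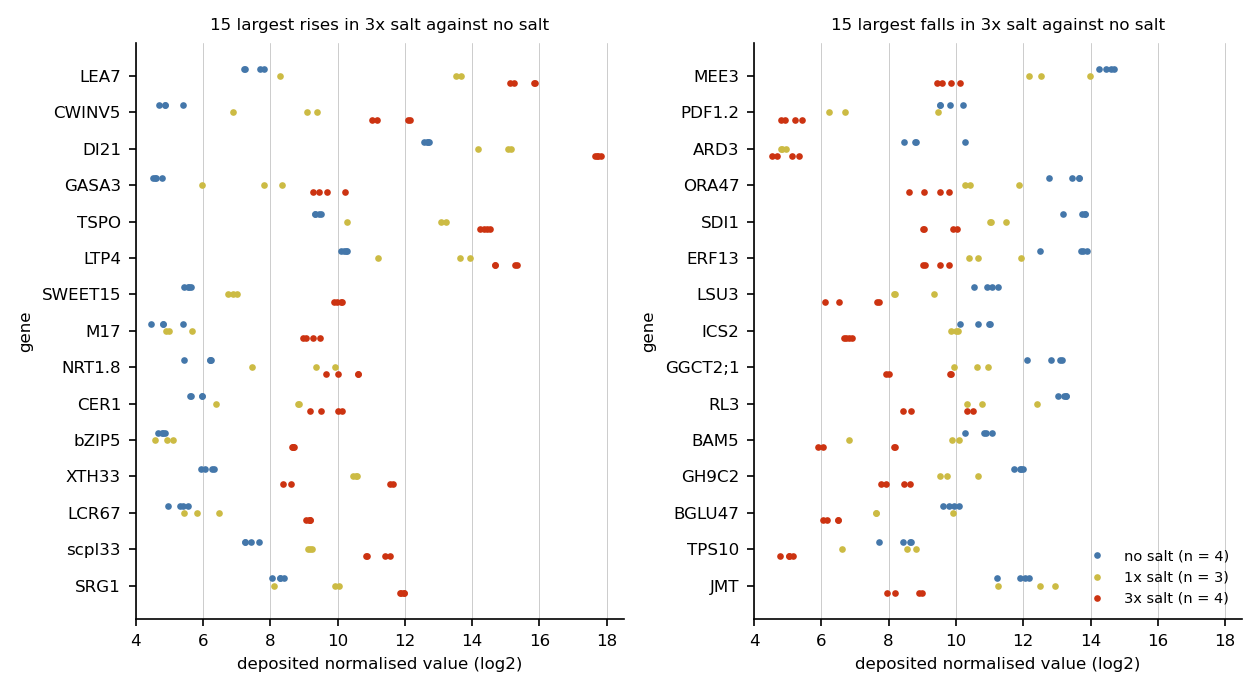
Values of the 15 largest rises (left) and the 15 largest falls (right) in each sample, on the log2 scale of the deposited table, with no salt in blue, 1x salt in yellow and 3x salt in red. The 4 red and 4 blue points of a gene do not overlap in any row, LEA7 moves from 7.21 to 7.80 up to 15.13 to 15.88, and XTH33 shows 2 separate pairs of 3x salt samples. The 1x salt samples lie between the groups in many rows.

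The 15 largest falls chosen in the same way held regulators, jasmonate genes and sulfur genes. MEE3 (AT2G21650), a small MYB-related factor of the RADIALIS-like family, stood at 14.25, 14.62, 14.46 and 14.69 in no salt and at 9.60, 9.43, 9.86 and 10.12 in 3x salt. It fell by 4.75 (SE 0.33, adjusted p = 7.31e-06), and its relative RL3 (AT4G36570) fell by 3.71 (SE 0.53, adjusted p = 0.000423). The ethylene response factor genes ORA47 (AT1G74930), a regulator in the jasmonate pathway, and ERF13 (AT2G44840) fell by 4.15 (SE 0.37, adjusted p = 3.03e-05) and by 4.10 (SE 0.38, adjusted p = 3.65e-05). JMT (AT1G19640), which methylates jasmonic acid, was at 11.22, 11.91, 12.05 and 12.17 in no salt and at 7.97, 8.18, 8.89 and 9.0 in 3x salt, a difference of -3.33 (SE 0.37, adjusted p = 9.71e-05). The jasmonate-responsive defensin gene PDF1.2 (AT5G44420) was at least 42.1-fold lower (adjusted p = 0.000148), was not well above background in 3x salt, and has near-identical copies that its probe may not tell apart. The touch and wound list fell alongside these genes, with 13 of 14 members lower, and its part in their falls was not tested.

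Of the sulfur genes among these falls, SDI1 (AT5G48850), which is induced when sulfur is scarce, was at 13.19, 13.74, 13.84 and 13.83 in no salt and at 9.07, 9.03, 9.90 and 10.05 in 3x salt. All 4 salt values lay over 3 units below the controls, and the difference was -4.14 (SE 0.25, adjusted p = 4.41e-06). ARD3 (AT2G26400), an acireductone dioxygenase gene that recycles methionine, fell by 4.16 (SE 0.34, adjusted p = 1.81e-05) and was above background on 1 of 4 3x salt arrays. LSU3 (AT3G49570), another gene of the low-sulfur response, fell by 3.94 (SE 0.39, adjusted p = 4.72e-05), and GGCT2;1 (AT5G26220), which takes part in glutathione breakdown, by 3.89 (SE 0.48, adjusted p = 0.000161). In both, 3x salt 1 and 2 lay below 3x salt 3 and 4, with GGCT2;1 at 7.93 and 8.00 against 9.86 and 9.82. ICS2 (AT1G18870), an isochorismate synthase gene, fell by 3.90 (SE 0.17, adjusted p = 5.6e-07). Among enzymes that act on glucans and glucosides, the endoglucanase gene GH9C2 (AT1G64390) fell by 3.69 (SE 0.25, adjusted p = 7.26e-06), and BGLU47 (AT4G21760), a beta-glucosidase gene, fell by 3.56 (SE 0.42, adjusted p = 0.000139). The terpene synthase gene TPS10 (AT2G24210) was at least 14.8-fold lower (adjusted p = 0.000163) and not well above background in 3x salt. BAM5, a beta-amylase gene described with the starch genes, completes the 15. With close arrays averaged, 8 of the 15 calls were kept, and those of PDF1.2, GGCT2;1, RL3, BAM5, BGLU47, TPS10 and JMT were not (adjusted p from 0.0525 to 0.14).

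The listed cytosolic ribosomal protein genes were higher in 3x salt almost as a block, while those of the plastid ribosome were not. Both lists hold only genes whose RefSeq names contain the words ribosomal protein, so they need not cover the whole families. Of 36 genes for cytosolic ribosomal proteins, 33 rose and none fell, with a median log2 difference of 0.79 against 0.02 over all loci. Measured against each gene's no salt mean, the median over the 36 genes was -0.01 to 0.02 in the no salt samples and 0.73, 0.79, 0.76 and 0.80 in 3x salt 1 to 4. The 4 salt samples were level with each other and apart from all controls, and the median was 0.78 within slide 1 and 0.78 within slide 6. RPSAb (AT3G04770), for a protein of the small subunit, was at 9.48, 9.63, 9.61 and 9.60 in no salt and at 10.83, 10.90, 10.73 and 10.67 in 3x salt, a rise of 1.2 (SE 0.11, adjusted p = 3.54e-05). PFL (AT1G22780), whose loss gives pointed leaves, rose by 0.94 (SE 0.09, adjusted p = 5.17e-05), and RPS15A (AT1G07770) by 0.84 (SE 0.08, adjusted p = 5.65e-05). With slide as a block 33 members still passed, and with close arrays averaged 8 of 36 passed with a median of 0.80.

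Of 24 genes for plastid ribosomal proteins, which are made in the cytosol and imported, 8 fell and 1 rose (median -0.21). The per-sample medians were -0.20, -0.19, -0.35 and -0.16 in 3x salt 1 to 4 and -0.03 to 0.03 in no salt. PRPL11 (AT1G32990) fell by 0.67 (SE 0.12, adjusted p = 0.0012), from 11.17 to 11.32 in no salt to 10.29 to 10.80 in 3x salt. RPL15 (AT3G25920) fell by 0.63 (SE 0.14, adjusted p = 0.00532), a call lost with slide as a block (adjusted p = 0.0522), and by 0.36 in the scanner values. RPL3P (AT3G17465) was the member that rose, by 0.73 (SE 0.12, adjusted p = 0.000862), but stood at 0.40 in the scanner values (adjusted p = 0.183). These 3 plastid calls were lost with close arrays averaged (adjusted p from 0.0598 to 0.099). The mesophyll markers fell beside the plastid list (11 of 12), and their part in its difference was not tested. Beside the ribosomes, the machinery of protein removal moved little. Of 39 proteasome subunit genes 3 rose and 1 fell (median 0.04), and of 29 autophagy genes 2 rose and 4 fell (median -0.07), both below the shares over all loci.

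**Figure D2:**
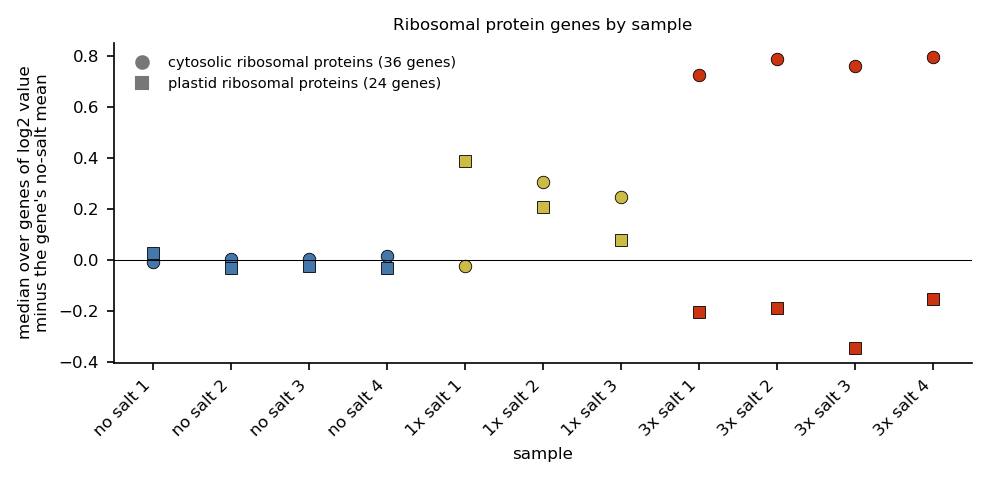
Median over 36 cytosolic (circles) and 24 plastid (squares) ribosomal protein genes of the log2 value minus each gene's no salt mean, in each of the 11 samples, with no salt in blue, 1x salt in yellow and 3x salt in red. The cytosolic median is 0.73 to 0.80 in the 3x salt samples against -0.01 to 0.02 in no salt, while the plastid median is -0.35 to -0.16.

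Genes of sulfur uptake and assimilation and of the glucosinolates, which are sulfur-rich defence compounds, were mostly lower. Of 15 sulfur genes 12 fell and 1 rose (median -0.83), with per-sample medians of -1.06, -1.07, -0.76 and -1.0 in 3x salt 1 to 4 against -0.23 to 0.06 in no salt. APR1 (AT4G04610), which reduces activated sulfate, was at 14.65, 14.77, 14.78 and 14.71 in no salt and at 12.71, 12.69, 13.46 and 13.37 in 3x salt. It fell by 1.67 (SE 0.18, adjusted p = 7.36e-05), and 3x salt 1 and 2 were lower than 3 and 4. SULTR4;2 (AT3G12520), which releases sulfate from the vacuole, fell by 0.98 (SE 0.11, adjusted p = 8.1e-05). The gene that rose was SULTR1;2 (AT1G78000), a high-affinity sulfate uptake transporter known from roots, by 0.75 (SE 0.20, adjusted p = 0.0161). In the averaged setting 3 of the 15 members were lower and none higher, and the calls of SULTR4;2, SULTR1;2 and GGCT2;1 were lost (adjusted p from 0.0504 to 0.214).

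LSU1 (AT3G49580), a low-sulfur response gene that is looked at here because of its values, shows what 1 spot can do. In the deposited table it was at 12.52, 12.55, 12.77 and 12.65 in no salt and at 8.05, 8.38, 15.29 and 9.44 in 3x salt. Sample 3 thus lay above all controls while the others lay far below, and the gene did not pass (log2 difference -2.33, adjusted p = 0.207). The spot of its brighter probe on that array carries an outlier flag of the scanner software. Without 3x salt 3 the difference was -4.0 (adjusted p = 4.18e-05), and in the scanner values, which leave out flagged spots, it was -4.05 (adjusted p = 2.72e-05). Over the 8 arrays, 104 loci of the table had a flagged spot, 27 of them among the loci that passed. Of the genes named here, only LSU1 and BAM5 were affected, and BAM5 stood at -3.73 in the scanner values.

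In the synthesis of glucosinolates 18 of 25 genes fell and none rose (median -0.72). The median over the list was -0.90, -0.82, -0.60 and -0.74 in 3x salt 1 to 4 and -0.06 to 0.03 in the controls. BAT5 (AT4G12030), which carries keto acids into the chloroplast for methionine chain elongation, was at 13.79, 13.51, 13.63 and 13.47 in no salt and at 11.91, 11.96, 12.36 and 12.21 in 3x salt. The difference of -1.49 (SE 0.11) had the smallest adjusted p of the list (1.31e-05). CYP79F1 (AT1G16410), which starts the conversion of elongated methionine, fell by 1.19 (SE 0.10, adjusted p = 2.32e-05), and FMOGS-OX1 (AT1G65860), which oxidises the side chain, by 0.93 (SE 0.10, adjusted p = 6.51e-05). All 3 calls were kept with close arrays averaged, under which 3 of the 25 members passed in all. Mesophyll markers fell in the same samples, and their part in the difference was not tested. Genes of flavonoid and phenylpropanoid synthesis were lower too, with 9 falls and no rise among 24 (median -0.74). In that list 4CL3 (AT1G65060), a coumarate-CoA ligase gene of the flavonoid branch, fell by 2.07 (SE 0.19, adjusted p = 2.98e-05) and UGT78D1 (AT1G30530), which adds rhamnose to flavonols, by 1.97 (SE 0.20, adjusted p = 5.85e-05).

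**Figure D3:**
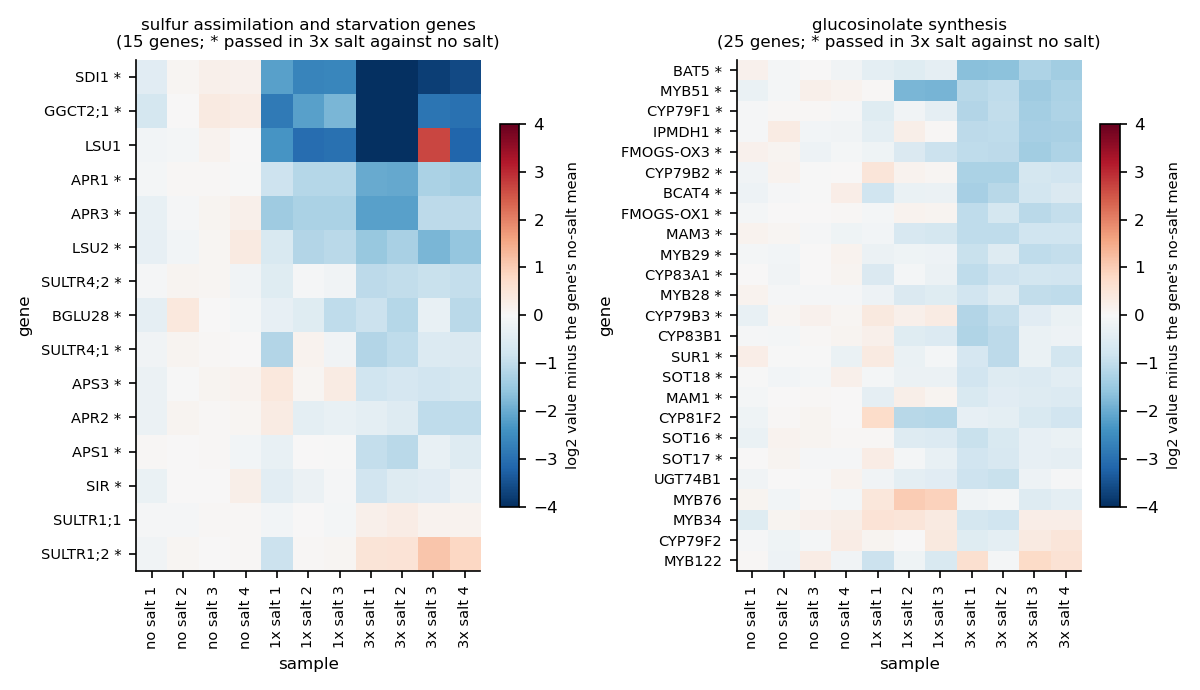
Log2 value minus the gene's no salt mean (blue lower, red higher) for 15 genes of sulfur assimilation and starvation and 25 of glucosinolate synthesis, by sample, with colours capped at 4 units and an asterisk at genes that passed. The 4 columns of 3x salt are blue for most genes of both lists. LSU1 shows 1 red cell in 3x salt 3, where the spot was flagged by the scanner software.

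More genes of starch metabolism were lower than higher. Of 35 genes of starch synthesis and breakdown 19 fell and 5 rose (median -0.40), and the per-sample median was -0.43, -0.39, -0.34 and -0.38 in 3x salt 1 to 4. On the side of synthesis, GBSS1 (AT1G32900), the granule-bound starch synthase, was at 13.38, 13.20, 13.37 and 13.29 in no salt and at 12.43, 12.38, 12.05 and 11.94 in 3x salt. It fell by 1.11 (SE 0.12, adjusted p = 8.77e-05), and APL1 (AT5G19220), a large subunit of ADP-glucose pyrophosphorylase, by 0.99 (SE 0.11, adjusted p = 7.26e-05). Another large subunit gene went the other way, as APL4 (AT2G21590) rose by 1.01 (SE 0.20, adjusted p = 0.00307). The beta-amylase gene BAM5 (AT4G15210) was at 10.26, 10.85, 10.88 and 11.07 in no salt and at 5.89, 6.05, 8.15 and 8.19 in 3x salt, a log2 difference of -3.69 (SE 0.75, adjusted p = 0.00319). Its values in 3x salt 1 and 2 lay below those in 3x salt 3 and 4. On the side of breakdown, BAM1 (AT3G23920), the beta-amylase that acts on guard cell starch and under osmotic stress, rose by 0.55 (SE 0.10, adjusted p = 0.00199). MEX1 (AT5G17520), which exports maltose from the chloroplast, fell by 0.76 (SE 0.11, adjusted p = 0.00034). GPT2 (AT1G61800), which moves glucose 6-phosphate into plastids, rose by 1.67 (SE 0.34, adjusted p = 0.00305). The mesophyll markers fell beside the starch list, and their part was not tested. After averaging of close arrays, 2 of the 35 genes were lower and none higher (median -0.38).

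Compatible solutes, small molecules that balance water potential, gave 9 rises and 6 falls among 22 genes (median 0.05). Both steps from glutamate to proline were higher. P5CS1 (AT2G39800) rose by 1.03 (SE 0.12, adjusted p = 0.000151) and P5CR (AT5G14800) by 1.28 (SE 0.10, adjusted p = 1.28e-05). The sucrose synthase gene SUS3 (AT4G02280) was at 10.86, 11.31, 11.37 and 11.11 in no salt and at 13.12, 13.22, 13.28 and 13.13 in 3x salt, a rise of 2.03 (SE 0.15, adjusted p = 1.03e-05). SIP2 (AT3G57520), a gene of raffinose metabolism, rose by 2.22 (SE 0.26, adjusted p = 0.000116). The inositol phosphate synthase genes MIPS2 (AT2G22240) and MIPS3 (AT5G10170) fell by 1.74 (SE 0.11, adjusted p = 4.06e-06) and by 1.96 (SE 0.23, adjusted p = 0.000133). Sugar transporters and invertases together gave 7 rises and 8 falls among 26 (median -0.10). Of the 13 starch and solute genes named in these paragraphs, 5 kept their calls with close arrays averaged (GBSS1, APL1, SUS3, P5CR and MIPS2), and the others did not (adjusted p from 0.0512 to 0.152).

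Nitrate and ammonium genes were among the lists with more rises than falls, 11 and 6 of 25 (median 0.35). The per-sample medians were 0.11 and 0.09 in 3x salt 1 and 2 and 0.44 and 0.33 in 3x salt 3 and 4. Besides NRT1.8, NRT1.7 (AT1G69870), which loads nitrate into the phloem, rose by 1.46 (SE 0.22, adjusted p = 0.00059). The nitrate reductase genes parted. NIA1 (AT1G77760) was at 11.36, 11.37, 11.40 and 11.35 in no salt and at 10.19, 10.40, 10.20 and 10.25 in 3x salt, a log2 difference of -1.11 (SE 0.09, adjusted p = 1.31e-05). NIA2 (AT1G37130) was at 12.14, 12.18, 12.18 and 12.22 in no salt and at 12.77, 12.70, 12.62 and 12.62 in 3x salt, a rise of 0.49 (SE 0.08, adjusted p = 0.000652). Both glutamine synthetase genes with the smallest adjusted p fell, GLN2 (AT5G35630) of the plastid by 1.12 (SE 0.14, adjusted p = 0.000174) and GLN1;4 (AT5G16570) of the cytosol by 0.84 (SE 0.10, adjusted p = 0.000115). Averaging left 1 of the 25 list members higher and 3 lower, and slide as a block 5 higher and 5 lower. NIA2, NRT1.7 and GLN2 lost their calls with close arrays averaged (adjusted p from 0.0568 to 0.0806).

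Aquaporins, the water channels of the plasma membrane and the tonoplast, were lower in 15 of 28 cases and higher in 2 (median -0.44), with per-sample medians of -0.58, -0.41, -0.45 and -0.43 in 3x salt 1 to 4. SIP1;2 (AT5G18290), of the small intrinsic proteins of internal membranes, was at 9.78, 10.14, 9.86 and 9.50 in no salt and at 7.86, 7.96, 8.27 and 8.37 in 3x salt. It fell by 1.7 (SE 0.16, adjusted p = 4.16e-05), the tonoplast gene TIP2;2 (AT4G17340) by 1.44 (SE 0.23, adjusted p = 0.000748) and the plasma membrane gene PIP1;1 (AT3G61430) by 0.91 (SE 0.11, adjusted p = 0.000181). The 2 that rose were also plasma membrane genes. PIP2;5 (AT3G54820) rose by 0.44 (SE 0.10, adjusted p = 0.00565). PIP1;4 (AT4G00430) rose by 2.77 in the deposited table (SE 0.43, adjusted p = 0.000631) but stood at 0.68 by its brightest of 5 probes in the scanner files (adjusted p = 0.0547). After averaging, 4 of the 28 genes were lower and none higher, and PIP1;4, PIP2;5 and TIP2;2 lost their calls (adjusted p from 0.0763 to 0.13).

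Ion channel and pump genes of guard cells split evenly, 5 higher and 5 lower of 24 (median -0.00). That is 20.8% in each direction, against 18.3% and 14.3% over all loci. Those for potassium release and for anion release through SLAH2 were higher. GORK (AT5G37500), the outward potassium channel used in closure, was at 10.08, 10.49, 10.20 and 10.20 in no salt and at 11.99, 11.82, 11.52 and 11.45 in 3x salt, a rise of 1.45 (SE 0.15, adjusted p = 7.26e-05). The nitrate-selective anion channel gene SLAH2 (AT4G27970) rose by 3.46 (SE 0.23, adjusted p = 7.13e-06), from 5.08 to 5.67 in no salt, where 1 of 4 arrays was above background, to 8.49 to 9.38 in 3x salt. The main anion channel gene SLAC1 (AT1G12480) overlapped between the groups, with 11.06 to 11.73 against 11.02 to 11.55, and did not pass (-0.12, SE 0.16, adjusted p = 0.653). The inward potassium channel genes were lower. KAT1 (AT5G46240) was at 12.51, 12.77, 12.83 and 12.97 in no salt and at 11.82, 11.89, 11.75 and 11.76 in 3x salt, a log2 difference of -0.97 (SE 0.13, adjusted p = 0.000276). KAT1 and SLAC1 are also in the guard cell marker list. In that list 7 of 13 genes fell and none rose, and its part in the fall of KAT1 was not tested. KAT2 (AT4G18290) fell by 1.00 (SE 0.18, adjusted p = 0.00134), though not with slide as a block (adjusted p = 0.0576), and AKT2 (AT4G22200) by 0.56 (SE 0.10, adjusted p = 0.00162). KAT3 (AT4G32650), a subunit that does not form a channel by itself, rose by 1.47 (SE 0.19, adjusted p = 0.000197).

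Genes of sodium, potassium and chloride balance gave 4 rises and 7 falls of 21 (median 0.01). The vacuolar cation exchanger gene CAX3 (AT3G51860) was at 10.92, 10.63, 10.80 and 10.78 in no salt and at 12.68, 12.35, 12.91 and 12.74 in 3x salt, a rise of 1.88 (SE 0.13, adjusted p = 7.31e-06). The calcium sensors of the salt response moved apart. SOS3 (AT5G24270), known from roots, rose by 1.27 (SE 0.14, adjusted p = 0.000106), and CBL10 (AT4G33000), its counterpart of the shoot, fell by 1.45 (SE 0.10, adjusted p = 7.08e-06). The sodium exporter gene SOS1 (AT2G01980) did not pass (0.01, SE 0.14, adjusted p = 0.972). HKT1 (AT4G10310), a sodium transporter gene, was above background on 1 of 4 no salt and no 3x salt arrays, so that no difference is given. Of the vacuolar exchangers, NHX2 (AT3G05030) fell by 0.70 (SE 0.13, adjusted p = 0.0017). NHX1 (AT5G27150) was 0.33 higher (SE 0.11, adjusted p = 0.0387), but missed the threshold without no salt 2, 3 or 4 and without 3x salt 2, 3 or 4 (adjusted p 0.0509 to 0.104). It also missed it with slide as a block (adjusted p = 0.292), while the scanner values gave 0.03. The chloride channel family members CLC-G (AT5G33280) and CLC-C (AT5G49890) fell by 0.65 (SE 0.11, adjusted p = 0.00131) and by 0.52 (SE 0.10, adjusted p = 0.00203). Of the 13 channel and transporter genes named here that passed, 4 kept their calls with close arrays averaged (SLAH2, GORK, CAX3 and CBL10), and the others had adjusted p from 0.053 to 0.305.

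**Figure D4:**
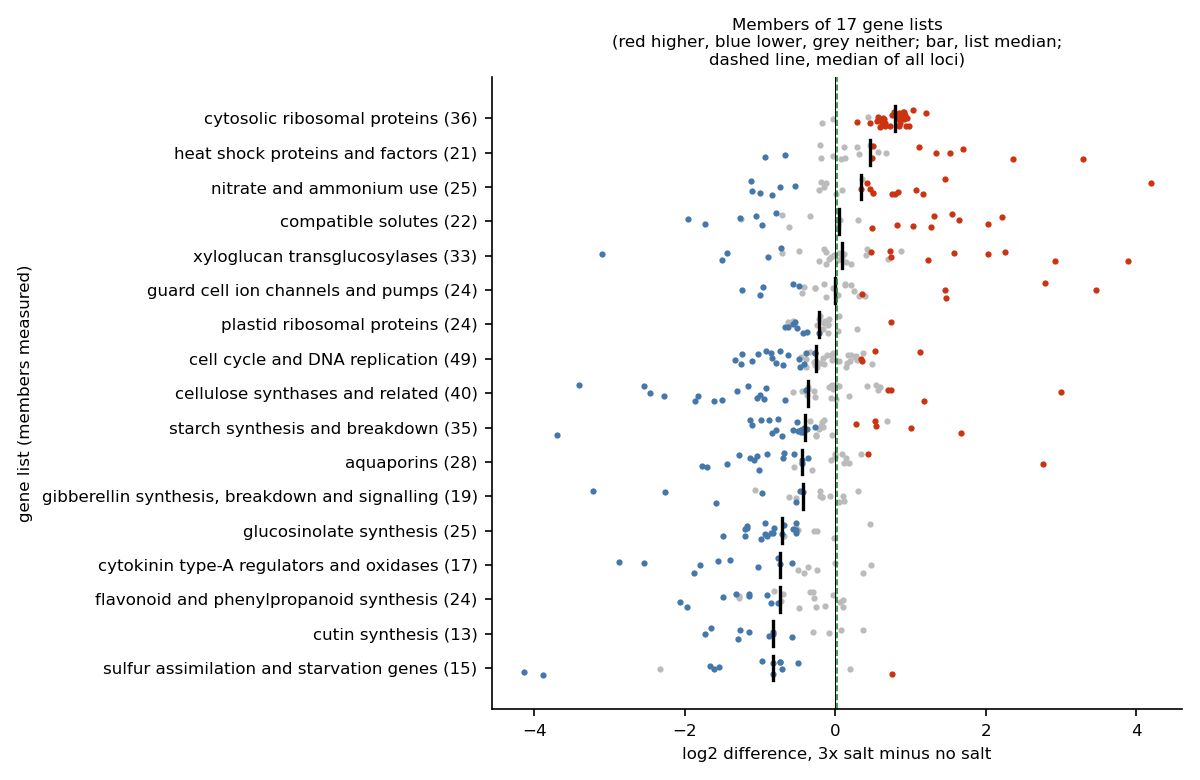
Log2 difference of every measured member of 17 gene lists between 3x salt and no salt, with points coloured by limma's call over all loci, a bar at the list median and a dashed line at the median of all loci (0.02). The cytosolic ribosomal genes lie in a narrow band around 0.79, while the sulfur, cutin, cytokinin and glucosinolate lists have medians of -0.83 to -0.72.

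The cuticle seals the epidermis, and its 2 parts behaved differently. Of 13 genes for cutin, the polyester of the cuticle, 9 fell and none rose (median -0.83), with per-sample medians of -1.03, -1.0, -0.78 and -0.67 in 3x salt 1 to 4. MYB16 (AT5G15310), a regulator of cuticle formation, was at 12.40, 12.46, 12.46 and 12.44 in no salt and at 10.98, 11.04, 11.22 and 11.33 in 3x salt. This tight group difference was -1.30 (SE 0.09, adjusted p = 7.98e-06). The acyltransferase gene GPAT8 (AT4G00400) fell by 1.73 (SE 0.18, adjusted p = 6.11e-05) and the hydroxylase gene CYP77A6 (AT3G10570) fell by 1.65 (SE 0.23, adjusted p = 0.000361). Of 19 genes of wax synthesis and export 6 rose and 3 fell (median 0.04), and the per-sample medians were -0.13 and -0.07 in 3x salt 1 and 2 and 0.25 and 0.22 in 3x salt 3 and 4. CER1, described above, led the rises, while CER2 (AT4G24510), of the elongation of wax acyl chains, fell by 0.86 (SE 0.16, adjusted p = 0.00173). Averaging left 2 of the 13 cutin genes lower and no wax gene called in either direction. Of these 5 calls those of CER1, CYP77A6 and CER2 were lost with close arrays averaged (adjusted p from 0.0561 to 0.111).

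Among 40 cellulose synthase and related genes, which build wall polysaccharides, 16 fell and 4 rose (median -0.36). The per-sample medians overlapped, at -0.24 in no salt 1 and at -0.25, -0.16, -0.54 and -0.43 in 3x salt 1 to 4, and averaging of close arrays left 5 members lower and none higher. CSLA09 (AT5G03760), which makes glucomannan, was at 12.87, 13.25, 13.12 and 13.27 in no salt and at 10.80, 10.85, 10.32 and 10.36 in 3x salt, a log2 difference of -2.54 (SE 0.15, adjusted p = 2.88e-06). CESA5 (AT5G09870), a cellulose synthase of primary walls, fell by 1.61 (SE 0.13, adjusted p = 1.6e-05). The neighbouring family members CSLG1 (AT4G24010) and CSLG2 (AT4G24000) went opposite ways. CSLG1 fell by 2.46 (SE 0.12, adjusted p = 1.15e-06), whereas CSLG2 rose by 3.00 (SE 0.51, adjusted p = 0.00109). Of 14 pectin methylesterase genes, which change the stiffness of pectin, 3 fell and 1 rose (median -0.19). PME61 (AT3G59010) was at 12.55, 12.83, 12.93 and 12.85 in no salt and at 9.99, 10.32, 10.12 and 10.19 in 3x salt, a log2 difference of -2.63 (SE 0.12, adjusted p = 5.6e-07). PME5 (AT5G47500) was not well above background in 3x salt and at least 9.81-fold lower (adjusted p = 2.99e-06).

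The arabinogalactan proteins, glycoproteins of the wall and cell surface, gave 12 falls and 7 rises among 50 (median -0.01). Of the 50, 37 were above background on at least 3 arrays, and the list median ran from -0.44 to 0.04 over the settings tried. The fasciclin-like members FLA15 (AT3G52370) and FLA1 (AT5G55730) fell by 3.22 (SE 0.23, adjusted p = 9.28e-06) and by 2.71 (SE 0.17, adjusted p = 5.51e-06). FLA15 went from 10.06 to 11.32 in no salt to 7.39 to 7.75 in 3x salt. AGP24 (AT5G40730) rose by 2.69 (SE 0.22, adjusted p = 1.81e-05). Xyloglucan transglucosylases, which cut and rejoin wall polymers, gave 9 rises and 5 falls of 33 (median 0.09), shares of 27.3% and 15.2%. Their median was 0.13 within slide 1 and -0.06 within slide 6, and averaging of close arrays left 1 higher and none lower. Besides XTH33, XTH25 (AT5G57550) rose by 2.93 (SE 0.16, adjusted p = 1.55e-06), from 7.56 to 7.89 in no salt to 10.29 to 10.88 in 3x salt. XTH4 (AT2G06850) rose by 2.25 (SE 0.37, adjusted p = 0.000968) with the same split as XTH33, at 14.35 and 14.37 in 3x salt 1 and 2 and at 12.83 and 12.72 in 3x salt 3 and 4. XTH31 (AT3G44990) fell by 3.11 (SE 0.59, adjusted p = 0.00218). Of 31 expansins, which loosen walls, 8 fell and 1 rose (median -0.00), with EXPB3 (AT4G28250) down by 2.5 (SE 0.37, adjusted p = 0.000513) and EXPA6 (AT2G28950) by 1.69 (SE 0.19, adjusted p = 0.000113). Only 15 of the 31 expansins were above background on at least 3 arrays of the comparison. Their list median ran from -0.70 to 0.01 over the settings tried. Of the 15 wall genes named, 9 kept their calls with close arrays averaged, and CSLG2, XTH33, XTH31, XTH4, EXPA6 and EXPB3 did not (adjusted p from 0.0536 to 0.125).

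Growth hormone genes are described from cytokinin to ethylene. Of 17 type-A response regulators, which are induced by cytokinin and dampen its signal, and cytokinin oxidases, which degrade it, 10 fell and none rose (median -0.73). The per-sample medians were -0.75, -0.69, -1.08 and -0.80 in 3x salt 1 to 4. ARR16 (AT2G40670), a type-A regulator, was at 11.88, 11.81, 11.92 and 12.01 in no salt and at 10.20, 10.11, 9.98 and 10.14 in 3x salt. Both groups were tight, and the difference was -1.8 (SE 0.09, adjusted p = 6.96e-07). The oxidase genes CKX4 (AT4G29740) and CKX6 (AT3G63440) fell by 2.88 (SE 0.19, adjusted p = 7.03e-06) and by 2.54 (SE 0.25, adjusted p = 4.54e-05). Of 19 gibberellin genes 7 fell and none rose (median -0.44). They included RGL1 (AT1G66350), a DELLA repressor of growth, which fell by 1.59 (SE 0.10, adjusted p = 3.81e-06), and GA2OX2 (AT1G30040), which inactivates gibberellin, by 2.26 (SE 0.17, adjusted p = 1.15e-05). A second gene for such an enzyme, GA2OX1 (AT1G78440), was not well above background in 3x salt and at least 15.9-fold lower (adjusted p = 0.000688).

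Early auxin genes were lower more often than higher. Of 38 Aux/IAA and GH3 genes 14 fell and 4 rose (median -0.28), with the repressor gene IAA17 (AT1G04250) down by 1.97 (SE 0.18, adjusted p = 3.49e-05). IAA32 (AT2G01200) rose by 1.66 (SE 0.25, adjusted p = 0.000593), and no probe of the scanner files was matched to it. Of 79 SAUR genes, small auxin-induced growth genes, 16 fell and 7 rose (median -0.06), shares of 20.3% and 8.86%. Of the 79, 45 were above background on at least 3 arrays, and the list median ran from -0.39 to -0.03 over the settings tried. SAUR48 (AT3G09870) fell by 3.17 (SE 0.39, adjusted p = 0.000172). In the brassinosteroid list 5 of 15 fell and 2 rose (median -0.42), the transcription factor gene BES1 (AT1G19350) falling by 0.93 (SE 0.19, adjusted p = 0.00296) and BKI1 (AT5G42750), an inhibitor of the brassinosteroid receptor, rising by 0.92 (SE 0.12, adjusted p = 0.0002). Ethylene synthesis and receptor genes were split, 3 higher and 3 lower of 16 (median 0.00), and so were 10 karrikin and strigolactone genes with 2 and 2 (median 0.07). Their shares of 18.75% and 20% in each direction were not far from the 18.3% and 14.3% over all loci. Averaging of close arrays left 4 cytokinin, 2 gibberellin and 2 Aux/IAA and GH3 genes lower and none of these lists' genes higher. The calls of GA2OX1, IAA32, SAUR48, BES1 and BKI1 were lost with close arrays averaged (adjusted p from 0.0595 to 0.105), while the other 6 of 11 hormone genes kept theirs.

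Mature guard cells do not divide. Of 49 cell cycle and DNA replication genes 18 fell, 4 rose and 27 did not pass (median -0.25), and of 21 core histone genes 10 fell and 1 rose (median -0.19). The cell cycle median was -0.05 within slide 1 and -0.34 within slide 6, and after averaging of close arrays no gene of either list was lower. The mitotic kinase gene CDKB2;1 (AT1G76540) fell by 0.74 (SE 0.11, adjusted p = 0.000432), and the mitotic cyclin gene CYCB1;3 (AT3G11520) was at least 3.40-fold lower (adjusted p = 0.000168) and not well above background in 3x salt. The D-type cyclin gene CYCD2;1 (AT2G22490), of the entry into division, rose by 1.13 (SE 0.10, adjusted p = 2.34e-05), from 8.65 to 8.84 in no salt to 9.76 to 10.04 in 3x salt. The histone genes HTA6 (AT5G59870) and HTB2 (AT5G22880) fell by 0.85 (SE 0.13, adjusted p = 0.000699) and by 0.71 (SE 0.11, adjusted p = 0.000625). Of 15 tubulin genes 5 fell and 1 rose (median -0.02), with TUB6 (AT5G12250) down by 0.82 (SE 0.10, adjusted p = 0.000207) and TUB5 (AT1G20010) by 0.72 (SE 0.08, adjusted p = 0.000116). Only CYCD2;1 and TUB6 of these 7 genes kept their calls with close arrays averaged, and the other 5 had adjusted p from 0.0518 to 0.0758.

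Stomatal lineage genes, which act while stomata form, gave 3 falls and 1 rise of 17 (median -0.13). SDD1 (AT1G04110), a protease that limits stomatal number, was at 6.32, 7.13, 7.21 and 6.96 in no salt and at 4.53, 4.68, 4.59 and 4.48 in 3x salt. It was not well above background in 3x salt and at least 4.46-fold lower (adjusted p = 1.58e-05). FLP (AT1G14350), a MYB factor that ends the divisions, fell by 0.98 (SE 0.13, adjusted p = 0.000235) and the receptor kinase gene ERL2 (AT5G07180) by 0.89 (SE 0.12, adjusted p = 0.000294). The peptide gene EPF2 (AT1G34245), detected on 2 of 4 control arrays, rose by 1.03 (SE 0.23, adjusted p = 0.00512). Of the factors of mature guard cells, MYB60 (AT1G08810), which acts in opening, fell by 1.33 (SE 0.20, adjusted p = 0.000482), while FAMA (AT3G24140), of guard cell identity, overlapped between the groups and did not pass (0.44, SE 0.23, adjusted p = 0.181). Both are in the guard cell marker list, where 7 of 13 genes fell, and its part in the fall of MYB60 was not tested. FAMA was lowest in no salt 1 at 10.47, against 11.21 to 11.31 in the other controls. Only SDD1 with close arrays averaged kept its call, and FLP, ERL2, EPF2 and MYB60 did not (adjusted p from 0.0566 to 0.139).

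Heat shock genes were the chaperone group with rises, 8 of 21 against 2 falls (median 0.46). HSP21 (AT4G27670), of the chloroplast, was at the background in all controls (4.75, 4.61, 4.70 and 4.64) and reached 8.11, 8.14, 7.69 and 7.92 in 3x salt, at least 8.43-fold higher (adjusted p = 5.6e-07). HSP70-4 (AT3G12580) rose by 2.36 (SE 0.19, adjusted p = 1.6e-05) and HSP90.1 (AT5G52640) by 1.53 (SE 0.18, adjusted p = 0.00013), both for cytosolic chaperones. The small heat shock gene HSP18.2 (AT5G59720) fell by 0.67 (SE 0.12, adjusted p = 0.00169). Averaging left 2 heat shock genes higher. Chaperones of the endoplasmic reticulum did not share these rises, with 4 falls and 1 rise of 15 (median -0.11) and BIP3 (AT1G09080) down by 1.21 (SE 0.22, adjusted p = 0.00164). The per-sample medians of this reticulum list were -0.41 and -0.48 in 3x salt 1 and 2 and 0.30 and 0.15 in 3x salt 3 and 4, so that the pairs of salt samples lay on opposite sides of the controls.

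Redox genes went in both directions. Of 49 glutathione S-transferase genes, whose products detoxify reactive compounds, 11 rose and 7 fell (median -0.08). These shares of 22.4% and 14.3% were near the 18.3% and 14.3% over all loci. GSTU9 (AT5G62480) was at 7.37, 7.45, 7.31 and 7.28 in no salt and at 10.02, 10.05, 10.35 and 10.33 in 3x salt, a rise of 2.83 (SE 0.13, adjusted p = 5.6e-07). GSTU11 (AT1G69930) and GSTU10 (AT1G74590) rose by 1.86 (SE 0.27, adjusted p = 0.000451) and by 1.53 (SE 0.17, adjusted p = 9.15e-05). The NADPH oxidases, which make superoxide at the plasma membrane in stomatal signalling, parted. RBOHD (AT5G47910) fell by 1.28 (SE 0.17, adjusted p = 0.000295) and RBOHF (AT1G64060) rose by 0.69 (SE 0.10, adjusted p = 0.000491). Their list of 16 antioxidant enzymes and oxidases gave 3 rises and 5 falls (median -0.23), with VTC2 (AT4G26850), of ascorbate synthesis, down by 0.98 (SE 0.16, adjusted p = 0.000877) and the iron superoxide dismutase gene FSD1 (AT4G25100) by 1.24 (SE 0.19, adjusted p = 0.000672). Alternative respiration gave 3 rises and 2 falls of 13 (median 0.24).

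Iron genes gave 3 rises and 6 falls of 23 (median -0.08). The ferritin gene FER2 (AT3G11050), for an iron storage protein, rose by 2.19 (SE 0.18, adjusted p = 1.94e-05), while the nicotianamine synthase genes NAS4 (AT1G56430) and NAS1 (AT5G04950), for a metal chelator, fell by 2.04 (SE 0.21, adjusted p = 6.13e-05) and by 1.76 (SE 0.22, adjusted p = 0.000174). Of the 17 chaperone, redox, phenolic and iron genes named, 7 kept their calls with close arrays averaged (HSP21, HSP70-4, GSTU9, FER2, NAS4, 4CL3 and UGT78D1), and the others had adjusted p from 0.0523 to 0.095. Phosphate starvation genes moved little, 3 higher and 2 lower of 21 (median -0.09).

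Senescence and low-energy genes were not raised as groups. Of 16 genes of chlorophyll breakdown and senescence 4 rose and 6 fell (median 0.01), and of 20 low-energy and dark-induced genes 3 rose and 1 fell (median 0.07). Besides SWEET15, SAG21 (AT4G02380), a mitochondrial late embryogenesis abundant protein, rose by 2.00 (SE 0.22, adjusted p = 8.23e-05), from 13.59 to 13.81 in no salt to 15.42 to 15.90 in 3x salt. NYE2 (AT4G11910), which starts the loss of green colour, rose by 0.95 (SE 0.16, adjusted p = 0.000957). The regulator gene WRKY53 (AT4G23810) fell by 2.31 (SE 0.27, adjusted p = 0.000123). In the averaged setting SAG21, NYE2 and WRKY53 lost their calls (adjusted p from 0.0502 to 0.0993). Light signalling genes gave 2 rises and 6 falls of 15 (median -0.27). PIF7 (AT5G61270), a phytochrome-interacting factor, fell by 1.5 (SE 0.10, adjusted p = 7.31e-06) and the shade-induced homeobox gene HB-2 (AT4G16780) by 1.11 (SE 0.12, adjusted p = 8.01e-05). Clock genes gave 4 rises and 5 falls of 18 (median -0.11), led by ELF4 (AT2G40080) of the evening complex, which rose by 2.11 (SE 0.19, adjusted p = 3.02e-05), and by the clock output gene RVE1 (AT5G17300), which fell by 1.43 (SE 0.21, adjusted p = 0.000526). The 10 NF-YA factors gave 1 rise and 3 falls (median 0.17). HB-2 and RVE1 were not called with close arrays averaged (adjusted p of 0.0542 and 0.0583).

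The stepwise regime was then set against the single late round by the test of the difference itself. Between 3x salt and 1x salt 4004 loci were higher (13.9%) and 2921 lower (10.2%) in 3x salt. This comparison and the one with no salt share the 4 3x salt samples, so their values are only placed side by side. With slide as a block 900 loci were higher and 629 lower, and with close arrays averaged 92 and 113. Of the 36 cytosolic ribosomal genes 28 were higher in 3x than in 1x salt and none lower, and the list's median against no salt was 0.79 in 3x and 0.19 in 1x salt. With slide as a block 8 of the 36 were higher and with averaging none, at medians of 0.62 and 0.63 between the regimes. The sulfur list had 7 of 15 members below 1x salt and 2 above (median against no salt -0.83 in 3x and -0.39 in 1x salt), and the glucosinolate list 14 of 25 below and 1 above (-0.72 and -0.28). Of the water channels, 15 of 28 were lower in 3x than in 1x salt and 1 was higher, at medians of -0.44 and 0.09 against no salt. Cutin genes gave 7 of 13 lower and none higher (-0.83 and 0.14), cytokinin genes 8 of 17 and none (-0.73 and 0.05), and cell cycle genes 22 of 49 lower and 2 higher (-0.25 and 0.25). Starch genes gave 9 of 35 lower and 6 higher (-0.40 and -0.20), and flavonoid genes gave 2 of 24 lower and 4 higher (-0.74 and -1.0). With slide as a block, the lower calls were 2 of 15 sulfur, 5 of 25 glucosinolate, 9 of 28 aquaporin, 3 of 13 cutin, 3 of 17 cytokinin, 9 of 49 cell cycle and 2 of 35 starch genes. With close arrays averaged they were 2 aquaporin, 1 cutin, 1 cytokinin and 1 cell cycle gene and none in the others. The mesophyll markers were lower in 3x than in 1x salt in 11 of 12 cases and the vascular markers in 11 of 17. Guard cell markers were lower in 6 of 13 cases and higher in none. Their summed level was 16.0 to 16.2 on the log2 scale in 1x salt and 14.8 to 15.3 in 3x salt. With slide as a block 2 guard cell, 5 mesophyll and 1 vascular marker were lower, and with close arrays averaged 1 of each. The part of these markers in the differences between the regimes was not tested.

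Some genes passed against no salt in 3x salt with no call in 1x salt, and for these the difference between the regimes was tested as well. bZIP5 was at 4.59, 5.10 and 4.94 in 1x salt 1 to 3, above background on 1 of 3 arrays, and lower than in 3x salt (adjusted p = 5.04e-08). HSP21, also detected on 1 of 3 arrays in 1x salt, was higher in 3x than in 1x salt (adjusted p = 4.94e-06). CAX3 was 2.16 higher in 3x salt (adjusted p = 1.67e-05). FLA1 was 2.52 lower (adjusted p = 2.82e-05) and CKX4 2.93 lower in 3x than in 1x salt (adjusted p = 2.49e-05). These 5 differences passed with slide as a block and with close arrays averaged (adjusted p from 0.015 to 0.0488). They are picked examples and do not stand for all genes of this pattern. With close arrays averaged GSTU9 passed as well (adjusted p = 0.0323). HSP70-4, SAG21 and KAT1 did not (adjusted p = 0.0535, 0.0672 and 0.0705). Other genes had fallen after the single round too. GBSS1 differed between the regimes by -0.01 (adjusted p = 0.98) and NIA1 by 0.19 (adjusted p = 0.161), and neither difference passed. XTH25 was higher after the single round, by 0.68 (adjusted p = 0.0141 for the difference of -0.68), although it rose in 3x salt as well, and this difference did not pass with slide as a block (adjusted p = 0.205) or with close arrays averaged (adjusted p = 0.11).

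Of the 153 genes named here, 6 passed in opposite directions in the regimes. Most named genes were chosen by their difference between 3x salt and no salt. The pattern was not counted over all loci, so whether 6 is many or few cannot be said. GPT2 was at 11.61, 11.38, 11.37 and 11.31 in no salt, at 8.77, 10.73 and 10.37 in 1x salt and at 13.00, 12.87, 13.23 and 13.27 in 3x salt, with 1x salt below and 3x salt above all controls. NIA2 was at 10.72, 10.79 and 10.56 in 1x salt, 1.49 below no salt (adjusted p = 1.07e-05), against its rise of 0.49 in 3x salt, and the regimes differed by 1.98 (adjusted p = 7.54e-07). GSTU10 fell by 1.09 in 1x salt (adjusted p = 0.00489) and rose in 3x salt, a difference of 2.62 (adjusted p = 2.28e-05). For HTA6, HTB2 and CDKB2;1 the order was the reverse. HTA6 was 0.75 higher in 1x salt than in no salt (adjusted p = 0.00953) and 1.6 lower in 3x than in 1x salt (adjusted p = 7.77e-05), HTB2 was 0.47 higher (adjusted p = 0.0346) and 1.18 lower (adjusted p = 0.000144), and CDKB2;1 was 0.45 higher (adjusted p = 0.0356) and 1.19 lower (adjusted p = 0.00012). The 1x salt side of this pattern was less firm. With slide as a block only NIA2 still passed in 1x salt (adjusted p = 0.0173), and the other 5 had adjusted p from 0.0607 to 0.142. With close arrays averaged none passed in 1x salt (adjusted p from 0.0995 to 0.326). The difference between the regimes passed for all 6 with slide as a block and for all but GPT2 (adjusted p = 0.0629) with close arrays averaged.

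**Figure D5:**
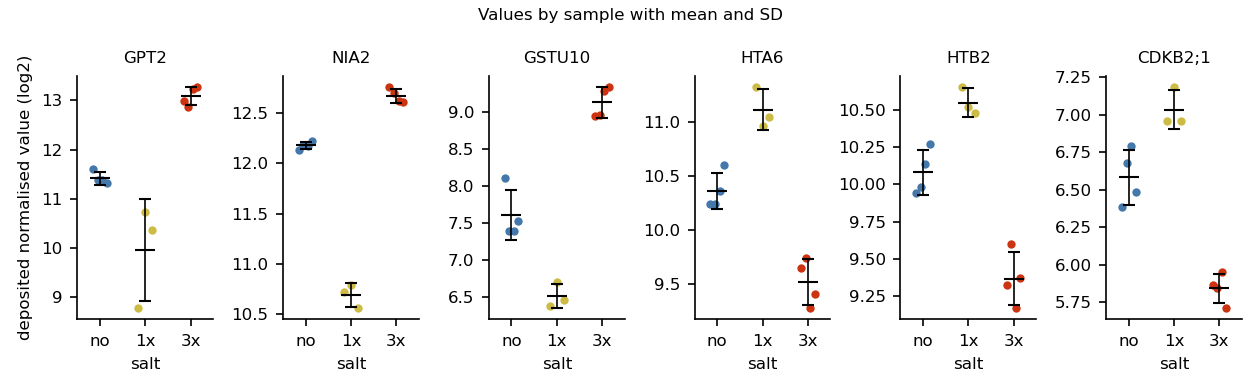
Values of 6 genes in each sample on the log2 scale of the deposited table, with 4 no salt samples in blue, 3 1x salt samples in yellow and 4 3x salt samples in red, and bars at the mean and SD of a group. GPT2, NIA2 and GSTU10 are lowest in 1x salt and highest in 3x salt, while HTA6, HTB2 and CDKB2;1 are highest in 1x salt and lowest in 3x salt.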

How the data were processed

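Gene expression was measured on 1-colour Agilent arrays in 11 samples, 8 of which form the comparison. The authors deposited a table of log2 values with 1 value per locus and sample. No source used here gives its normalization or background correction. The deposited scanner files hold spot intensity, which, per the file headers, Feature Extraction (version 11.5.1.1, Agilent) had background-subtracted and detrended. Each column of the table correlated best with its own array (0.787 to 0.929, against at most 0.844 with others).

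The test was that of limma (version 3.58.1, under R 4.3.3), with lmFit and eBayes on 3 groups of 11 samples in all and 8 residual degrees of freedom. P-values were adjusted over all 28718 loci by the Benjamini-Hochberg method, with a threshold of 0.05, and every adjusted p in the text is limma's. The fit was tested on simulated data. The scanner fit used log2 processed signal minus each array's 75th percentile, the brightest probe of a locus, and probes well above background on at least 3 of 11 arrays, and left out outlier-flagged spots. It also gave the background calls and the lower bounds of folds. Of 43603 probes, 34348 carried a locus. Symbols came from the RefSeq gene table, which held 28332 of the 28718 loci. The number of arrays limits the precision.

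Genes were named if they were among the 15 largest rises or falls that passed in both fits without overlap, among the up to 3 members per direction of a list with the smallest adjusted p, or among SLAC1, GORK, KAT1, HKT1, NHX1, SOS1, P5CS1, CLC-C, MYB60 and FAMA. LSU1 was added after its values were seen. The text names 153 genes in all, and further genes that met the rule are not described. The genes, the 49 lists (1163 distinct loci) and the tests were chosen with earlier results of these data known. Of the list members, 17 were left out because their symbol could not be matched to their locus in the RefSeq table. Alternatives were other scanner settings, normalizations and filters, the slide or the replicate number as a block, each sample left out, and close arrays averaged. No sequences are printed.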

Additional observations from a re-analysis of the deposited data

Results flagged for a closer look

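In groups of 4 samples, a sample was singled out where its gap to the nearest other passed Dixon's critical value, which chance gives in about 1 in 20 groups. It occurred in 22 of 306 groups of the named genes, and in 15 of them the sample was no salt 1, each time as the lowest. These lowest values of no salt 1 were 9.19 for APL4, 6.13 for CYCB1;3, 12.5 for ERF13, 10.47 for FAMA, 10.09 for FLA1, 13.05 for FMOGS-OX1 and 11.29 for HB-2. The others were 4.95 for HKT1, 7.42 for NAS1, 9.11 for NAS4, 5.45 for NRT1.8, 9.85 for RBOHF, 9.32 for SAUR48, 13.19 for SDI1 and 12.12 for SIP2. Of the remaining controls, no salt 2 was highest for 4CL3 (10.95), no salt 3 highest for XTH25 (7.89) and no salt 4 lowest for RVE1 (10.57). In 3x salt, sample 1 was highest for CYCD2;1 (10.04), sample 2 highest for CSLG1 (9.52) and lowest for HB-2 (10.25), and sample 4 lowest for NHX2 (10.19). No call of these genes was lost without no salt 1.

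The 6 genes with opposite directions in the salt regimes differed between 3x and 1x salt, on the log2 scale and by limma's test of that difference, by 3.14 for GPT2, 1.98 for NIA2, 2.62 for GSTU10, -1.60 for HTA6, -1.18 for HTB2 and -1.19 for CDKB2;1. In 1x salt against no salt, 1 of these 6 genes (NIA2) passed with slide as a block and none with close arrays averaged.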

How the results depend on the processing

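The counts of loci past the threshold depended most on how alike arrays were treated. With slide as a block, 3400 loci were higher and 2554 lower in 3x salt than in no salt, against 5243 and 4100. With close arrays averaged the counts were 543 and 461. Between 3x and 1x salt, slide as a block left 900 higher and 629 lower, and averaging left 92 and 113, against 4004 and 2921. Fewer samples enter the averaged fit. The cause of the smaller counts with slide as a block was not tested. Leaving out 1 sample at a time gave 4393 to 5635 higher and 3400 to 4468 lower against no salt, and 3181 to 4036 higher and 2339 to 2933 lower against 1x salt. With the replicate number as a block the counts were 5839 and 4446 against no salt and 4354 and 3009 against 1x salt. Same-numbered samples correlated at 0.0635, 0.108, 0.2125 and 0.177 in their deviations, and differently numbered samples at -0.159 to 0.112. Whether the numbers pair the samples was not tested. The block changed no call of a named gene. The scanner values gave 5793 higher and 4776 lower.

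Of the 148 named genes that passed, 145 kept their call with slide as a block, 144 of 147 measured in the scanner values, 145 of 147 after normexp and quantile normalization, and 143 of 147 with the mean of a locus' probes. No named gene that passed changed sign in any of the 22 settings. Leaving out single samples changed only the calls of NHX1 and LSU1. In the scanner values CDKB2;1 was at -1.11, RBCS2B at -1.06 and AHA3 at 0.63, over 1.5 times from the deposited table. For genes that 1 group did not show above background, no scanner difference is given.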
